A study of Mus musculus with 6 samples.

Results

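The uroplakin genes Upk1a, Upk1b, Upk2, Upk3a and Upk3b were examined in larger proximal airways from mice aged 9 weeks. The members were named by gene symbol, and all 5 were found among the 19938 genes measured by a probe set annotated to a single gene. Each had 1 probe set, so no choice between rows was needed. Mutant airways came from mice of genotype Scgb1a1-Cre:Foxp1flox/flox:Foxp4flox/flox (3 arrays), in which Cre under the Scgb1a1 promoter acts in club cells on floxed alleles of 2 forkhead transcription factor genes. Control airways came from Scgb1a1-Cre mice without the floxed alleles (3 arrays), so both groups carry the driver. The background was a mix of C57BL/6 and 129X1 in both groups. The tissue was cut from stained frozen lung sections with forceps and scissors. It therefore held the airway wall and attached tissue as well as epithelium, and cells that never expressed Cre keep Foxp1 and Foxp4. The labels do not state whether each array stands for a separate mouse, so errors measure the spread between these samples. The family was chosen by the difference of its genes between mutant and control airways on these same arrays. Their comparison is therefore a description and is not independent evidence.

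Uroplakins are membrane proteins best known from the bladder, where they assemble into rigid plaques on the apical surface of umbrella cells and form part of the urinary barrier. Upk1a and Upk1b are tetraspanins with several membrane spans. Upk2, Upk3a and Upk3b are single-span partners: Upk2 pairs with Upk1a, and Upk3a or Upk3b pairs with Upk1b, and the partners leave the endoplasmic reticulum as heterodimers. In mouse lung, Upk3a is known from a subset of club cells near neuroepithelial bodies, and Upk3b is known as a marker of mesothelium, the cell layer covering the lung.

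Values are log2 expression values, 1 unit being a doubling. The members read between 5.14 and 9.91, above the lower quartile of every array (4.42 to 4.50), but no detection call was available to place any of them above background. Levels of different probe sets cannot be ranked against each other. The targeted genes checked the labels in part: Foxp1 averaged 9.30 ± 0.05 in mutants and 9.53 ± 0.10 in controls, and Foxp4 8.22 ± 0.40 in mutants and 8.91 ± 0.13 in controls (SD, n = 3 each). The limma fit called neither gene (Benjamini-Hochberg adjusted p = 0.444 for Foxp1 and 0.339 for Foxp4). No mutant array reached the lowest control for either gene, which was also so for 5.64% of all genes. The gap was 0.08 for Foxp1 and 0.28 for Foxp4. The club cell genes were present in every array, with a mean over 10 genes of 12.22 to 12.34 in mutants and 12.01 to 12.09 in controls. One control array stood apart from its group: on the first principal component of all genes (45.4% of the variance), the mutants lay between -23.0 and -11.3. Control 1 lay at -11.3 and controls 2 and 3 at 38.4 and 29.4.

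The family did not move as one. Upk2 was lower in mutant airways, Upk3a and Upk1b were higher, and Upk1a and Upk3b overlapped between the groups. At an adjusted p under 0.05 over all genes, the limma fit called 2 of the 5 members, Upk3a as higher and Upk2 as lower. The same rule called 0.266% of all genes, of which 0.236% were higher and 0.0301% lower. That balance turned without control 1, where 117 genes were called higher and 271 lower, and without control 1 and mutant 2 (320 higher and 643 lower), against 47 higher and 6 lower on all arrays. At an unadjusted p under 0.05 stood 10.1% of all genes, the share to set beside the unadjusted counts of the lists below. The groups did not overlap for 3 members, against 15.0% of all genes; 2 of these members were higher, against 9.33%, and 1 was lower, against 5.64%. Because the family was chosen with this contrast known, nothing is read from either count.

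**Figure D1:**
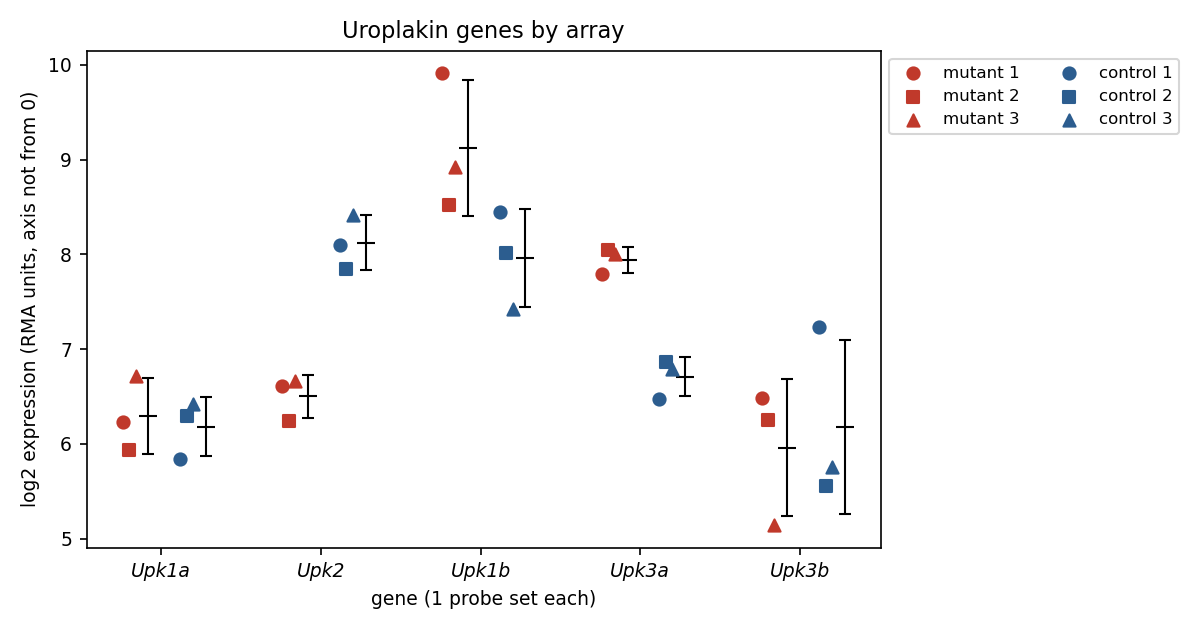
Log2 expression (y axis) of the 5 uroplakin genes in each array, with mutants in red to the left of controls in blue; the marker shape is the replicate number, and horizontal bars with whiskers are group means and SD (n = 3). Upk2 is lower and Upk3a higher in all 3 mutants, Upk1b groups almost touch, and control 1 is the highest array for Upk3b.

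Upk2 and its tetraspanin partner Upk1a behaved differently. Upk2 (probe set 10592878) read 6.61, 6.24 and 6.66 in mutants 1 to 3, against 8.10, 7.84 and 8.41 in controls 1 to 3. Every mutant lay at least 1.18 below every control, a gap wider than the range of either group (0.42 in mutants and 0.57 in controls). Control 1, which lay with the mutants on the first principal component, read with its own group for Upk2. The mean was 6.50 ± 0.23 in mutants and 8.12 ± 0.29 in controls (SD, n = 3 each), a log2 difference of -1.61 (SE 0.181), or 3.06-fold lower as measured. Ordered by the size of the difference, Upk2 stood at 111 of 19938 genes. In dissected tissue, fewer cells that express a gene and less RNA per cell cannot be told apart. Upk1a (probe set 10562050), whose product binds Upk2, read 6.23, 5.93 and 6.72 in mutants and 5.84, 6.29 and 6.42 in controls. The groups overlapped almost fully, with a log2 difference of 0.11 (SE 0.239).

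Upk3a and its partner Upk1b were both higher in mutants, with unequal spread. Upk3a (probe set 10425914) read 7.79, 8.05 and 8.0 in mutants, against 6.47, 6.86 and 6.79 in controls. The arrays of a group differed by at most 0.26 in mutants and 0.39 in controls, and the gap between groups was 0.93. Means were 7.94 ± 0.14 in mutants and 6.71 ± 0.21 in controls (SD, n = 3 each), a log2 difference of 1.24 (SE 0.133), or 2.36-fold higher as measured. Upk1b (probe set 10439500) read 9.91, 8.52 and 8.92 in mutants and 8.45, 8.01 and 7.42 in controls. The lowest mutant exceeded the highest control by 0.06, which is small beside the range of 1.39 within mutants and 1.03 within controls. Its log2 difference of 1.16 (SE 0.407) was about as large as that of Upk3a, and it was not called. Leaving out mutant 1, its highest array, gave 0.76, and leaving out both controls 2 and 3 gave 0.66.

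The calls on Upk2 and Upk3a changed with single arrays. Both were kept without control 1, and both were lost without control 2, control 3, mutant 1, mutant 2 or mutant 3. The size moved little: with 1 array left out, the difference of Upk2 lay between -1.75 and -1.46 and that of Upk3a between 1.12 and 1.32. Without controls 2 and 3, so that control 1 alone stood for its group, Upk2 was at -1.59 and Upk3a at 1.48, and neither was called.

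**Figure D2:**
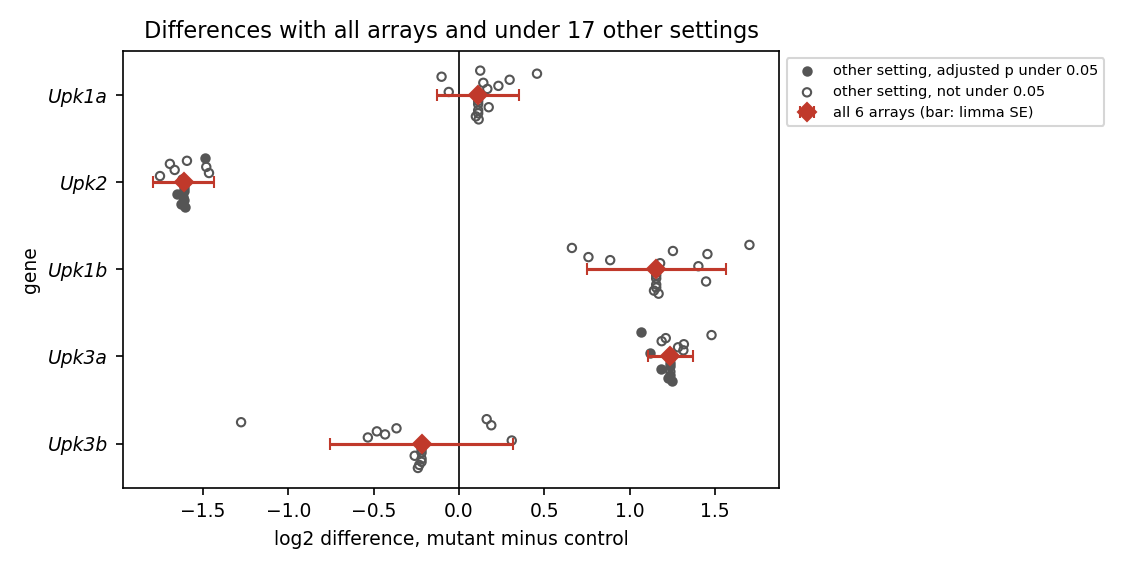
Log2 difference, mutant minus control (x axis), of each uroplakin gene (y axis) with all 6 arrays (red diamond, bar = limma SE) and under 17 other settings (circles, filled where the adjusted p was under 0.05). All settings for Upk2 lie between -1.75 and -1.46 and for Upk3a between 1.07 and 1.48, whereas Upk1a and Upk3b have settings on both sides of 0.

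Upk3b varied widely within both groups and did not separate the genotypes. Its probe set (10526441) read 6.48, 6.25 and 5.14 in mutants and 7.23, 5.55 and 5.75 in controls. Control 1 was the highest array and mutant 3 the lowest, so the spread within groups (SD 0.72 in mutants and 0.92 in controls) exceeded the log2 difference of -0.22 (SE 0.533). Upk3bl, the Upk3b-like gene that lies next to Upk3b in the GRCm38.p6 annotation, read 5.33, 5.15 and 5.08 in mutants and 6.25, 5.03 and 5.16 in controls. Control 1 was again the highest. The sign of the Upk3b difference turned without control 1 (0.31) and without mutant 3 (0.19).

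Mesothelial markers were set beside Upk3b because it marks that layer. Of 14 mesothelial genes, none was called by limma and 1 had an unadjusted p under 0.05, against 10.1% of all genes. The list averaged 7.06 to 7.32 in mutants and 7.21 to 7.74 in controls, highest in control 1. Lrrn4, a mesothelial membrane protein, read 4.98, 5.35 and 4.74 in mutants and 5.85, 4.79 and 4.90 in controls. Gpm6a, a membrane glycoprotein of mesothelium and neurons, read 6.97, 7.86 and 6.66 in mutants and 8.16, 6.73 and 7.06 in controls. Both were highest in control 1, as Upk3b was, and lowest in mutant 3. Of the 14 genes 9 were highest in control 1, 4 were lowest in mutant 3 and 3 were both. Another 4, Krt8, Krt18, Krt19 and Tbx18, were highest in mutant 3, and the keratins are also expressed by airway epithelium. Of 2 transcription factor genes, Bnc1 (4.22 to 4.41 in mutants and 4.12 to 4.53 in controls) read near the lower quartile of the arrays. Wt1 (5.02 to 5.34 in mutants and 4.68 to 5.39 in controls) read between that quartile and the array medians (5.89 to 5.95). Both were highest in control 1 and lowest in control 2. Outside control 1, Lrrn4 (4.74 to 5.35) and Upk3bl (5.03 to 5.33) read as low as Wt1. Upk3b itself ranked below the array median in mutant 3, control 2 and control 3 (percentiles 37.5, 45.5 and 47.4 of all rows). Msln, which encodes mesothelin, took another course: it read 8.85, 7.53 and 7.48 in mutants and 9.97, 10.89 and 10.15 in controls, lower in every mutant without passing (log2 difference -2.38, limma adjusted p = 0.122). Rspo1, a secreted Wnt agonist, was the other gene of the list to read lower in every mutant (6.44 to 6.70 in mutants and 6.77 to 7.44 in controls, log2 difference -0.46, adjusted p = 0.499). Upk2 was the only uroplakin member lower in every mutant. A highest value in control 1 and a lowest in mutant 3 were not particular to mesothelial genes. The cardiac muscle list below had both. Whether the amount of mesothelium had a part in any uroplakin value was not tested.

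Upk1b was also set beside the basal cell list, after its values had been seen. None of the 8 basal cell genes was called by limma or had an unadjusted p under 0.05. The mean of the list was 7.94, 6.76 and 7.37 in mutants and 7.49, 7.03 and 6.50 in controls, which is the order of the arrays for Upk1b within each group. Of 16 lists, 4 had this order: besides basal cells, smooth muscle and the urothelial keratins and transcription factors, the last 2 of which share genes with the basal list. The list's groups overlapped, and those of Upk1b did not. The part of any of these cell types in the Upk1b values was not tested.

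**Figure D3:**
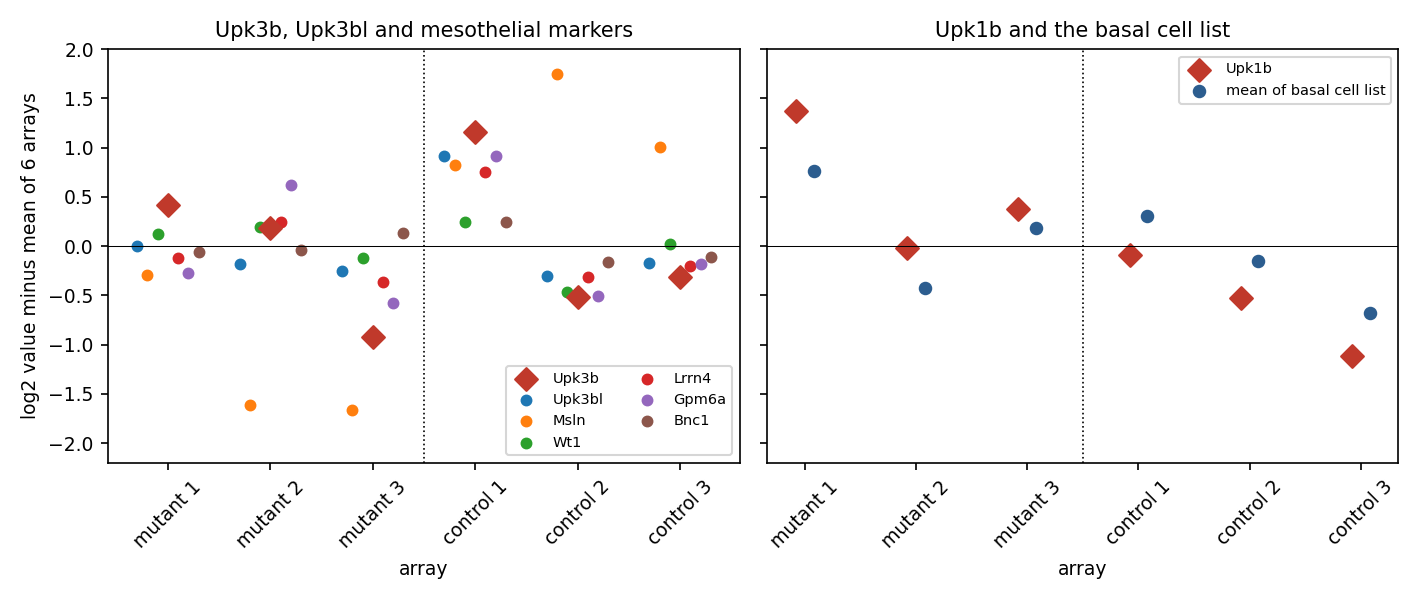
Log2 value minus the gene's mean over the 6 arrays (y axis) for each array (x axis, mutants left of the dotted line). Left, Upk3b (red diamonds) with Upk3bl and 5 mesothelial markers; right, Upk1b with the mean of the basal cell list. Upk3b, Upk3bl, Lrrn4 and Gpm6a are highest in control 1, and Msln is lower in all mutants than in all controls.

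Markers of other cell types were compared in the same fit. Of 10 club cell genes, none was called and 3 had an unadjusted p under 0.05 (10.1% of all genes did), all higher, with a list median of 0.22 against 0.02 over all genes. Gabrp, a GABA receptor subunit, was the first of them by p (log2 difference 0.52, adjusted p = 0.119), and Scgb1a1, the secretoglobin gene that gives the Cre its promoter, had a difference of 0.25 (adjusted p = 0.476). The list averaged higher in every mutant (12.22 to 12.34) than in every control (12.01 to 12.09), as Upk3a did; its part in the Upk3a values was not tested. For the 8 measured neuroendocrine genes, which mark the cells beside Upk3a-expressing club cells, 0 were called and 0 had an unadjusted p under 0.05, with a median of -0.04. The epithelial genes averaged 9.51 to 10.10 in mutants and 9.53 to 9.83 in controls. Alveolar type 2 genes, from tissue a dissection can carry along, also averaged higher in every mutant (11.40 to 11.52) than in every control (10.99 to 11.18). None of these 9 was called and 4 had an unadjusted p under 0.05, all higher, beside 10.1% of all genes. The order shared with Upk3a was thus not particular to club cells, and the part of alveolar tissue in the Upk3a values was not tested. The 9 B and plasma cell genes all read lower in mutants by mean (median log2 difference -1.71, 0 of 9 above 0) and averaged 5.84, 7.70 and 6.08 in mutants and 6.37, 9.33 and 9.18 in controls. For T and NK cells the median difference was -1.49, with 3 of 8 genes under an unadjusted p of 0.05, all lower, and the list averaged 5.89, 6.97 and 5.94 in mutants and 6.39, 8.10 and 8.02 in controls. Both lists were highest in controls 2 and 3, the arrays apart on the first principal component, and their groups overlapped through control 1. None of their genes was called. Upk2, the member lower in mutants, read 8.10 in control 1, between controls 2 and 3 (7.84 and 8.41). The part of B, plasma, T or NK cells in the Upk2 values was not tested. Cardiac muscle genes averaged 9.79, 10.98 and 8.43 in mutants and 11.27, 8.90 and 9.56 in controls. They were highest in control 1 and lowest in mutant 3, as Upk3b was. Adipocyte genes averaged 7.04, 7.70 and 6.62 in mutants and 8.73, 6.33 and 6.82 in controls, highest in control 1 and lowest in control 2. The part of cardiac muscle or adipocytes in the Upk3b values was not tested.

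The wider tetraspanin family, to which Upk1a and Upk1b belong, held 1 called gene. Tspan8, a tetraspanin of epithelial cells, rose in mutant airways: it read 11.22, 11.51 and 11.50 in mutants and 10.02, 9.86 and 9.47 in controls (log2 difference 1.62, SE 0.164, limma adjusted p = 0.0246). Every mutant lay above every control. This was 1 of 28 measured tetraspanin genes called, against 0.236% of all genes called as higher. In all 6 of the 28 had an unadjusted p under 0.05, each of them higher, and 6 had mutants above controls without overlap, against 9.33% of all genes. The median of the list was 0.05, beside 0.02 for all genes. Without control 2, control 3, mutant 1, mutant 2 or mutant 3 Tspan8 was not called, while its difference stayed between 1.47 and 1.74 with any 1 array left out. Cd37 (-1.99) and Cd53 (-1.30), tetraspanins of leukocytes, had negative differences with overlapping groups, and neither was called.

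Of 10 genes that act in carrying uroplakins to and from the cell surface, limma called none and 1 had an unadjusted p under 0.05, a share near the 10.1% of all genes, with a list median of 0.06. The gene under it was Rab27b, a small GTPase of exocytosis, at 6.47, 6.60 and 7.07 in mutants and 6.26, 5.98 and 5.98 in controls (log2 difference 0.64, SE 0.175, limma adjusted p = 0.306). The groups did not overlap. Next by p were Vps33a, which acts in vesicle fusion (0.10), and Exoc5, an exocyst subunit (0.18). The groups of Vps33a did not overlap either, which made 2 of the 10 higher without overlap, against 9.33% of all genes. Snx31, a sorting nexin that binds uroplakins on their way to breakdown, had a difference of -0.12, and Mal, a raft protein of apical transport, one of 0.06.

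Among 12 transcription factors known from urothelium, limma called none and 3 had an unadjusted p under 0.05, 2 higher and 1 lower, beside 10.1% of all genes. Gata3, a zinc finger factor, read 6.03, 6.05 and 5.89 in mutants and 6.31, 6.49 and 6.65 in controls (log2 difference -0.50, SE 0.111, adjusted p = 0.212). Its groups did not overlap, and neither did those of Grhl3, a grainyhead factor of barrier epithelia (5.99 to 6.19 in mutants and 5.58 to 5.87 in controls, difference 0.29, adjusted p = 0.482). Those of Ovol1 did not overlap either (difference 0.21). This made 2 of the 12 higher and 1 lower without overlap, against 9.33% and 5.64% of all genes. The nuclear receptor gene Pparg read 8.18 to 8.70 in mutants and 7.63 to 8.30 in controls (difference 0.57, adjusted p = 0.452). The list median was 0.09.

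Of the 9 keratins of urothelium, none was called and 1, the simple epithelial keratin Krt7, had an unadjusted p under 0.05 (log2 difference 0.40, limma adjusted p = 0.413), a share near the 10.1% of all genes. Krt19 and Krt8, also of simple epithelia, came next by p, each at 0.32. Krt20, the keratin of bladder umbrella cells, read 4.61 to 4.77 in mutants and 4.63 to 4.82 in controls. The groups overlapped, at values little above the lower quartile of each array.

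**Figure D4:**
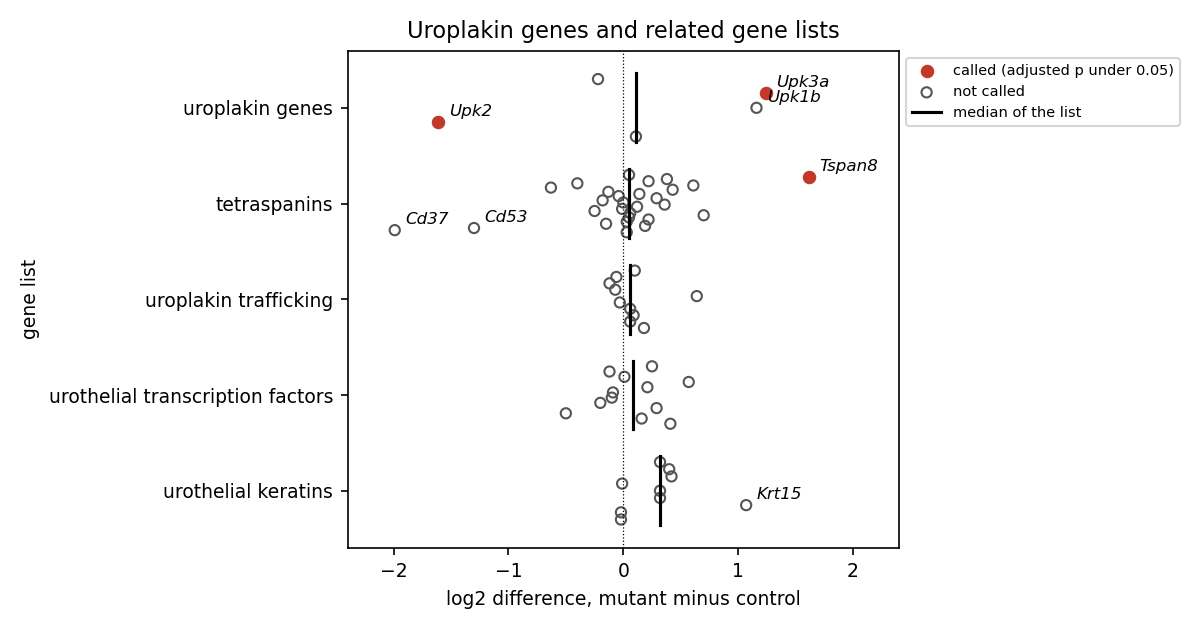
Log2 difference, mutant minus control (x axis), of each gene of the uroplakin family and of 4 related lists (y axis); filled red points are genes called at an adjusted p under 0.05 over all genes, and vertical bars are list medians. Upk3a, Upk2 and Tspan8 are the called genes, and the medians of the 4 related lists lie between 0.05 and 0.32.

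The members also differed in which genes tracked them across the 6 arrays. Likeness was Pearson's r over the 6 log2 values, for 3101 other genes with an SD of at least 0.3. With so few arrays, and with the difference between genotypes included, r is a description only. Genes picked by a high r largely share the array pattern of their member by that choice. For Upk3a, 137 genes reached an r of 0.9, led by Clec12a, a C-type lectin receptor (0.997), Commd2 (0.997) and the protocadherin gene Fat3 (0.994). Each of the 3 was higher in every mutant. For Upk2, 25 genes reached 0.9, led by the lipid phosphatase gene Plpp3 (0.979), the connexin gene Gja4 (0.977) and Pdzk1ip1, a small membrane protein (0.968), all lower in every mutant. For Upk1b there were 37, led by the actin nucleator gene Spire1 (0.979), the interferon-induced Ifit1 (0.976) and the centrosomal Cep78 (0.969). The leading genes of Upk3b, among 73, were Igfbp2, an insulin-like growth factor binding protein (0.992), the transporter gene Abca6 (0.991) and the protease inhibitor gene Reck (0.980). All 3 were highest in control 1 and lowest in mutant 3. Upk1a had 2 at 0.9 or above, Bad, a cell death regulator (0.925), and Sprr1a, a cornified envelope protein (0.917), and Cmtm7 came next.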

How the data were processed

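For each array the authors deposited a log2 value per probe set. The tools listed in the submitters' processing notes, without versions, are oligo, RMA and limma. RMA corrects background, gives arrays a shared distribution and compresses differences of dim probe sets. No genome build of the array was given, and coordinates are left out. The platform annotation named 1 gene for 21789 of 35556 rows. The highest-mean row per gene was kept, leaving 19938 genes. The comparison of mutants with controls was fitted with limma 3.58.1 under R 4.3.3 (lmFit, eBayes, genotype only, two-sided), with Benjamini-Hochberg adjustment over all genes and a threshold of 0.05. SE is limma's moderated one. The procedure was tested on simulated data. No 2 arrays held identical values (SD of differences at least 0.238). Their number limits the precision.

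The members and gene lists were chosen with earlier results of these data known. Named genes were the members, Foxp1, Foxp4 and Scgb1a1, the 3 genes most like each member, called members of each list or otherwise the 3 with the smallest p in the lists of related genes, and 5 mesothelial markers. Upk3bl formed a list of its own. Gabrp, Cd37, Cd53, Snx31, Mal, Ovol1, Rspo1, Tbx18 and Krt20 were chosen after their values were seen. Predicted genes, small RNAs and olfactory or vomeronasal receptors were left out of likeness. Of the marker lists, those of ciliated cells (median log2 difference -0.07), adipocytes (-0.20) and smooth muscle (0.03) had no called member. The alternatives tried were 17 in number and are given with their effect below. Python 3.11.15, pandas 2.3.3 and matplotlib 3.10.9 were used for joins and figures.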

Additional observations from a re-analysis of the deposited data

How the results depend on the processing

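Upk2, Upk3a and Upk1b kept their direction in all 17 alternatives. Of the members called, 2 remained 2 in count under median centring, a repeat of quantile normalisation, a filter on the lowest 40% of genes, array weights, an intensity trend, robust eBayes and the mean of a gene's rows, and without control 1 and mutant 2. The count was 1 when all rows were tested (Upk2 adjusted p = 0.0561), 0 with the replicate number as a block (3 at an unadjusted p under 0.05), 0 without controls 2 and 3 (2 unadjusted), and 0 to 2 with 1 array left out. Over the alternatives the limma adjusted p ranged from 0.0095 to 0.269 for Upk2 and from 0.0071 to 0.229 for Upk3a, and the lowest for Upk1b was 0.0620. Without controls 2 and 3 the lone control was assumed to vary like the mutants. With 1 array left out the difference of Upk1a lay between -0.10 and 0.30 and that of Upk3b between -0.53 and 0.31. The difference of Upk1a turned to -0.06 without control 1 and -0.10 without mutant 3. That of Upk3b turned to 0.31 and 0.19 in the same settings and to 0.16 without control 1 and mutant 2. The cause of these changes was not tested.

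Over all genes, 53 calls became 0 under the replicate block (1945 unadjusted), 291 with array weights, 82 with an intensity trend, 0 without controls 2 and 3 (1542 unadjusted), 963 (320 higher, 643 lower) without control 1 and mutant 2, and 9 to 388 with 1 array left out. Of the 158 list genes, the 1 call became 0 under the block (31 unadjusted), 6 with array weights, 2 with the trend, 0 without controls 2 and 3 (24 unadjusted), 30 without control 1 and mutant 2, and 0 to 8 with 1 array left out. These alternatives for the lists, Tspan8, Foxp1 and Foxp4 were added after seeing the data. Foxp4 passed without control 1 and mutant 2 (adjusted p = 0.0478, with a range of 0.0478 to 0.820 over the alternatives). The labels do not state whether replicate numbers pair the samples. Deviations from the group means correlated across genes at 0.14, -0.09 and -0.04 for equal numbers. For unequal numbers the correlations lay between -0.2 and 0.18. Under the replicate block the SE was smaller for every member (Upk2 0.094, against 0.181 without the block). It was larger for Tspan8 (0.182 against 0.164) and Foxp4 (0.208 against 0.201). With so few arrays, these values cannot decide whether the numbers pair samples.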
